A study of Mus musculus with 8 samples.

Results

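The serpins are a family of protease inhibitors and related proteins, many of which the liver secretes into plasma. Here they were taken as the protein-coding genes whose symbol is Serpin followed by a clade letter from a to i and a number. RefSeq (mouse assembly GRCm38.p6) lists 63 such genes, and 55 of them had a probe set that the platform annotation assigns to exactly 1 gene, out of 30627 genes tested in all. They fall into clade A with 19 genes, clade B with 27, clades F and I with 2 each, and clades C, D, E, G and H with 1 each. The other 8 genes, among them Serpina1a, Serpina3k and Serpina3m, lacked a probe set that is theirs alone and were not analysed here.

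Liver RNA of 8 male C57BL/6 mice was measured on Affymetrix arrays. All 8 mice had eaten high fat diet over 13 weeks, as a model of raised blood cholesterol. Anti-miR-128-3p, which blocks a microRNA, was injected intraperitoneally 5 times in 4 mice, and the other 4, the control mice, were injected 5 times with a control that 1 label field calls a vehicle. That field names miR-128-3p itself for the treated mice rather than its inhibitor, and the groups follow the titles. Each array is read as 1 mouse, which the labels do not state outright, so p-values measure the spread between these arrays. No source used here gives the age of the mice or the chemistry of the inhibitor.

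A typical serpin holds out an exposed loop as bait for a protease. When the protease cuts the loop, the serpin folds around it and traps it in an inactive complex. Some members have lost this activity and serve as hormone carriers or as a chaperone, and the clade B serpins mostly stay inside cells. In the liver, hepatocytes make most of the clade A, C, D, F and G serpins found in plasma, which restrain coagulation, fibrinolysis, complement and neutrophil proteases.

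The inhibited microRNA is shown because its seed, bases 2 to 8, sets which transcripts it can pair with. It is made from genes on chromosomes 1 and 9 (GRCm38.p6, chr1:128202404-128202424 on the plus strand and chr9:112118644-112118664 on the minus strand). The seed is in capitals.
mmu-miR-128-3p: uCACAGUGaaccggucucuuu

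The alpha-1-antitrypsin genes Serpina1a to Serpina1e are duplicates in one cluster on chromosome 12, and stretches before their starts are shown for comparison. Probe sets of near-identical genes may share signal. These stretches lie outside the annotated transcripts and do not show whether that happens here, and transcript and probe sequences were not compared. The 100 bases below end from 0 to 62 bases before the annotated start of each gene. They are from RefSeq (GRCm38.p6), all on the minus strand, and capitals mark bases that differ from the most common base among the 5 genes. The intervals are chr12:103863625-103863724, chr12:103738200-103738299, chr12:103904962-103905061, chr12:103773634-103773733 and chr12:103956960-103957059, in the order of the names.
Serpina1a: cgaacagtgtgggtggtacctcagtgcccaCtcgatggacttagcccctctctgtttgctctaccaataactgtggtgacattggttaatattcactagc
Serpina1b: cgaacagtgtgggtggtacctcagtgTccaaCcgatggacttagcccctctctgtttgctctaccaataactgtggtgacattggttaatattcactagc
Serpina1c: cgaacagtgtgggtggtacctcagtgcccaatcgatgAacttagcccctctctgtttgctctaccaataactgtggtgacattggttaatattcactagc
Serpina1d: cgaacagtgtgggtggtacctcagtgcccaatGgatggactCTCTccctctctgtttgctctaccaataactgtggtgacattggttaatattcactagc
Serpina1e: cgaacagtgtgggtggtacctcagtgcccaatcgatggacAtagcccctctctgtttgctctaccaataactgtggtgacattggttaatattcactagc
Between any pair of the 5 genes, 93 to 98 of the 100 positions were identical. The last 55 bases were identical in all 5, and Serpina1d differed from the most common base at 5 positions, against 1 or 2 in the others.

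The values are log2 signals after RMA, and differences are log2 differences, anti-miR-128-3p minus control, with limma's SE. The array medians over genes lay between 5.04 and 5.12, and arrays correlated across genes at 0.992 to 0.996. No detection call was used here, so the negative control rows of the arrays serve as a guide to background: over the 8 arrays their means had a median of 4.38 and a 95th percentile of 7.38. The hepatocyte marker Alb was at 13.96 ± 0.05 in anti-miR-128-3p livers and 13.92 ± 0.04 in control livers (mean ± SD, n = 4 each), and the 9 of 10 listed hepatocyte markers that were measured had a median difference near 0. Signals of different genes are not compared in level.

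No serpin passed the test across all genes. Limma called 0 of the 55 serpins at an adjusted p under 0.05, and 0 of all 30627 genes (0.0%), and the smallest adjusted p of a serpin was 0.631. At an unadjusted p under 0.05, 1 serpin was higher, Serpinh1, and 0 were lower. This is 1.82% of the serpins, against 4.26% of all genes higher and 3.37% lower. The ranges of both groups lay apart for 1 serpin with a higher signal, again Serpinh1, and for 0 with a lower one, against 2.52% (higher) and 1.89% (lower) of all genes. None of these shares of the family exceeds that of all genes, which include genes that do not code for protein. Among the 19103 protein-coding genes tested, 555 were higher and 768 lower at an unadjusted p under 0.05. The ranges lay apart for 334 of them with a higher signal and for 420 with a lower one.

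Across the family 27 genes had a positive and 28 a negative difference, with a median of -0.01. Of the 55 differences, 42 were smaller than 0.1 in size, and 9 were larger than the within-group SD of their own gene. The intervals of 54 genes held 0. The median within-group SD of the serpins was 0.08, against 0.10 over all genes. In clade A the median difference was -0.02, with 8 genes positive and 11 negative, and in clade B it was 0.01, with 14 positive and 13 negative.

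**Figure D1:**
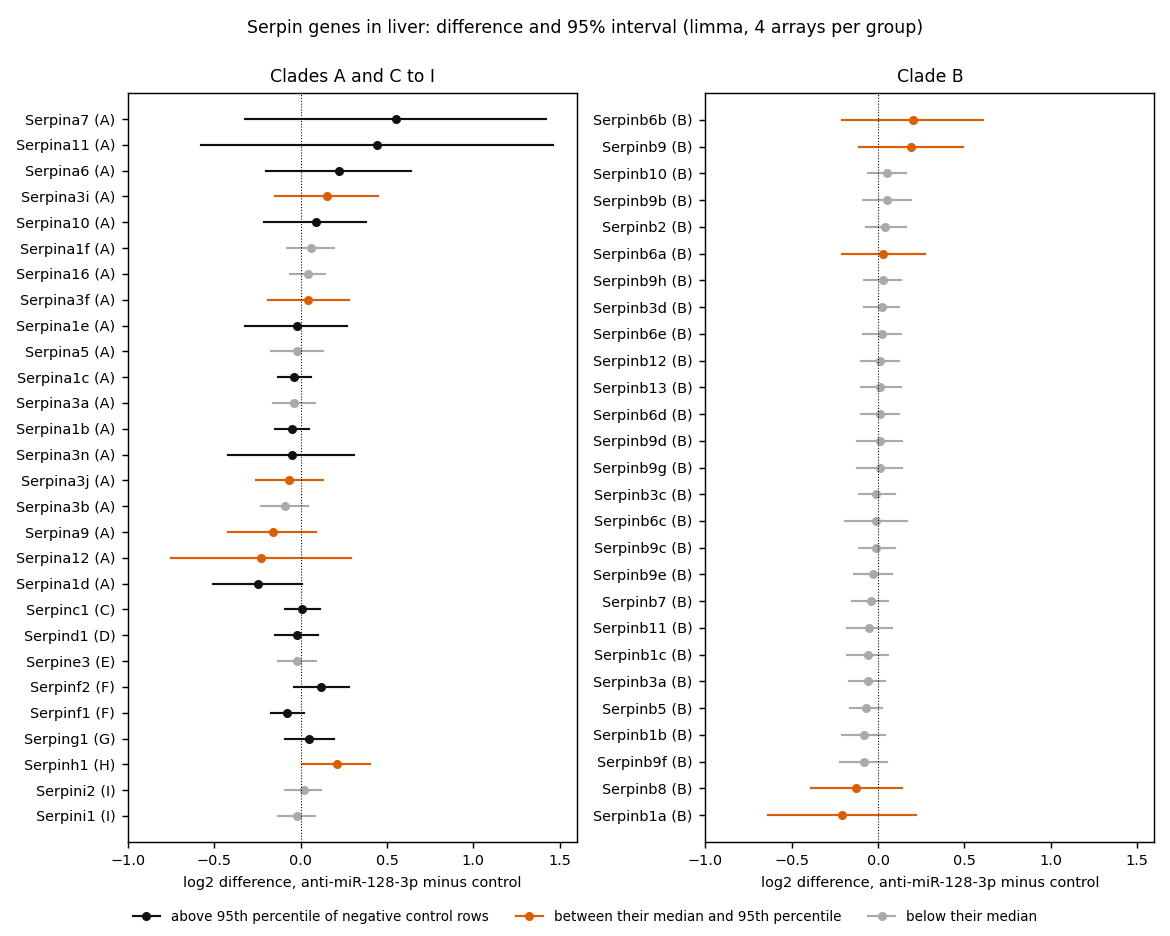
Log2 difference (anti-miR-128-3p minus control, x axis) of each of the 55 serpins with limma's 95% interval, 4 arrays per group, clade in brackets and colour by level against the negative control rows. Serpinh1, at 0.21, is the one gene whose interval lies above 0, and the intervals of Serpina11 and Serpina7 are the widest.

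The level against background differed by clade. Of the 55 serpins, 14 had a group mean above the 95th percentile of the negative control rows, 11 lay between their median and that percentile, and 30 lay below the median. All 14 of the brighter genes belong to clades A (9), C (1), D (1), F (2) and G (1), and all are known as secreted proteins. In clade B, 22 of 27 genes were below the median of the negative control rows and 5 were between. Among the 30 genes below the median no difference exceeded 0.09 in size, and a small change or a fall from a level near background may not be seen there.

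The alpha-1-antitrypsin genes of clade A encode the main plasma inhibitor of neutrophil elastase. Serpina1b was at 13.34, 13.32, 13.33 and 13.26 in anti-miR-128-3p livers, against 13.35, 13.32, 13.33 and 13.44 in control livers. Serpina1c was at 13.48, 13.52, 13.54 and 13.53 in anti-miR-128-3p livers, against 13.54, 13.52, 13.54 and 13.61 in control livers. Both were steady from liver to liver, and both groups overlapped. Their differences were -0.05 (95% interval -0.15 to 0.05) and -0.04 (-0.13 to 0.06).

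Serpina1d and Serpina1e varied more between livers. Serpina1d was at 12.97, 12.52, 12.54 and 12.86 in anti-miR-128-3p livers, against 13.01, 12.87, 12.86 and 13.15 in control livers. The 2 lowest values were anti-miR-128-3p replicates 2 and 3, and the other 2 anti-miR-128-3p livers lay within the control range. The difference of -0.25 ± 0.11 was the most negative of the 55 serpins of the symbol rule and did not pass (limma adjusted p = 0.671). Serpina1e was at 13.41, 12.92, 12.92 and 13.32 in anti-miR-128-3p livers, against 13.27, 13.02, 13.04 and 13.34 in control livers, a difference of -0.02 ± 0.13. A probe set assigned to both Serpina1a and Serpina1d was at 12.97 ± 0.02 in anti-miR-128-3p livers and 12.99 ± 0.03 in control livers (SD, n = 4 each), a difference of -0.02 ± 0.04. The lower value of the Serpina1d probe set was therefore not seen in the probe set it shares with Serpina1a. Serpina1f, the remaining paralog, was below the median of the negative control rows, at 3.51 ± 0.09 in anti-miR-128-3p livers and 3.45 ± 0.07 in control livers.

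The Serpina3 paralogs, which correspond to human antichymotrypsin, were measured for 6 genes, of which 2 had a positive and 4 a negative difference (median -0.05). Serpina3n, an acute phase protein that inhibits granzyme B and neutrophil proteases, was at 12.39, 12.29, 12.84 and 12.69 in anti-miR-128-3p livers, against 13.02, 12.47, 12.56 and 12.38 in control livers. Control replicate 1 was the highest liver, and the groups overlapped. The difference of -0.05 had an interval from -0.42 to 0.31, wide enough to hold a 1.24-fold change upwards and a fold of 0.75 downwards. In the same control replicate 1 the acute phase genes Orm2, at 12.31, and Lrg1, at 12.22, were the highest of the 8 livers. The acute phase list, of which all 25 genes were measured, had 18 positive and 7 negative differences and a median of 0.11. Of these 25, 0 were higher and 1 lower at an unadjusted p under 0.05, against 4.26% (higher) and 3.37% (lower) of all genes. The gene that was lower is Il6st, the signalling chain of the interleukin-6 receptor, with -0.26 ± 0.07.

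Of the other Serpina3 paralogs, Serpina3f, Serpina3i and Serpina3j lay between the median and the 95th percentile of the negative control rows, and Serpina3a and Serpina3b lay below the median. Serpina3i was at 5.37, 5.36, 5.94 and 5.35 in anti-miR-128-3p livers, against 5.45, 5.21, 5.39 and 5.37 in control livers. Replicate 3 alone stood above the others, and without it the difference was 0.00 instead of 0.15.

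The hormone carriers of clade A have lost protease inhibition. Serpina6, corticosteroid-binding globulin, was at 10.30, 10.83, 10.63 and 10.50 in anti-miR-128-3p livers, against 9.96, 10.86, 10.36 and 10.22 in control livers. The control livers spanned the whole range of the anti-miR-128-3p livers, and the difference was 0.22 ± 0.18. It was 0.09 when control replicate 1 was left out and 0.39 when control replicate 2 was. Serpina7, thyroxine-binding globulin, was at 8.58, 7.86, 9.03 and 8.70 in anti-miR-128-3p livers, against 8.60, 8.73, 7.42 and 7.2 in control livers. Control replicates 3 and 4 were the lowest of the 8 livers, and control replicates 1 and 2 lay within the range of the anti-miR-128-3p livers. Its difference of 0.55 ± 0.38 was the largest positive one in the family (limma adjusted p = 0.813). Leaving out single livers gave 0.29 (control replicate 4 omitted) to 0.80 (control replicate 2 omitted).

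Among the other clade A genes, Serpina10, the protein Z-dependent inhibitor of coagulation factor X, was at 11.19, 11.01, 11.12 and 11.06 in anti-miR-128-3p livers, against 11.37, 11.14, 10.81 and 10.73 in control livers. Its difference was 0.09 ± 0.13, and the control livers spread more than the anti-miR-128-3p livers (SD 0.08 in anti-miR-128-3p livers and 0.30 in control livers). Serpina12, the adipokine vaspin, was at 6.60, 5.53, 5.66 and 6.22 in anti-miR-128-3p livers, against 6.24, 6.14, 6.01 and 6.57 in control livers. Its difference was -0.23 ± 0.23 (-0.43 to -0.08 with single livers left out), and its level lay below the 95th percentile of the negative control rows. Serpina9, a serpin of germinal centre B cells, was at 4.83 ± 0.08 in anti-miR-128-3p livers and 4.99 ± 0.25 in control livers (SD, n = 4 each). Serpina5, the protein C inhibitor, and Serpina16 were below the median of the negative control rows.

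**Figure D2:**
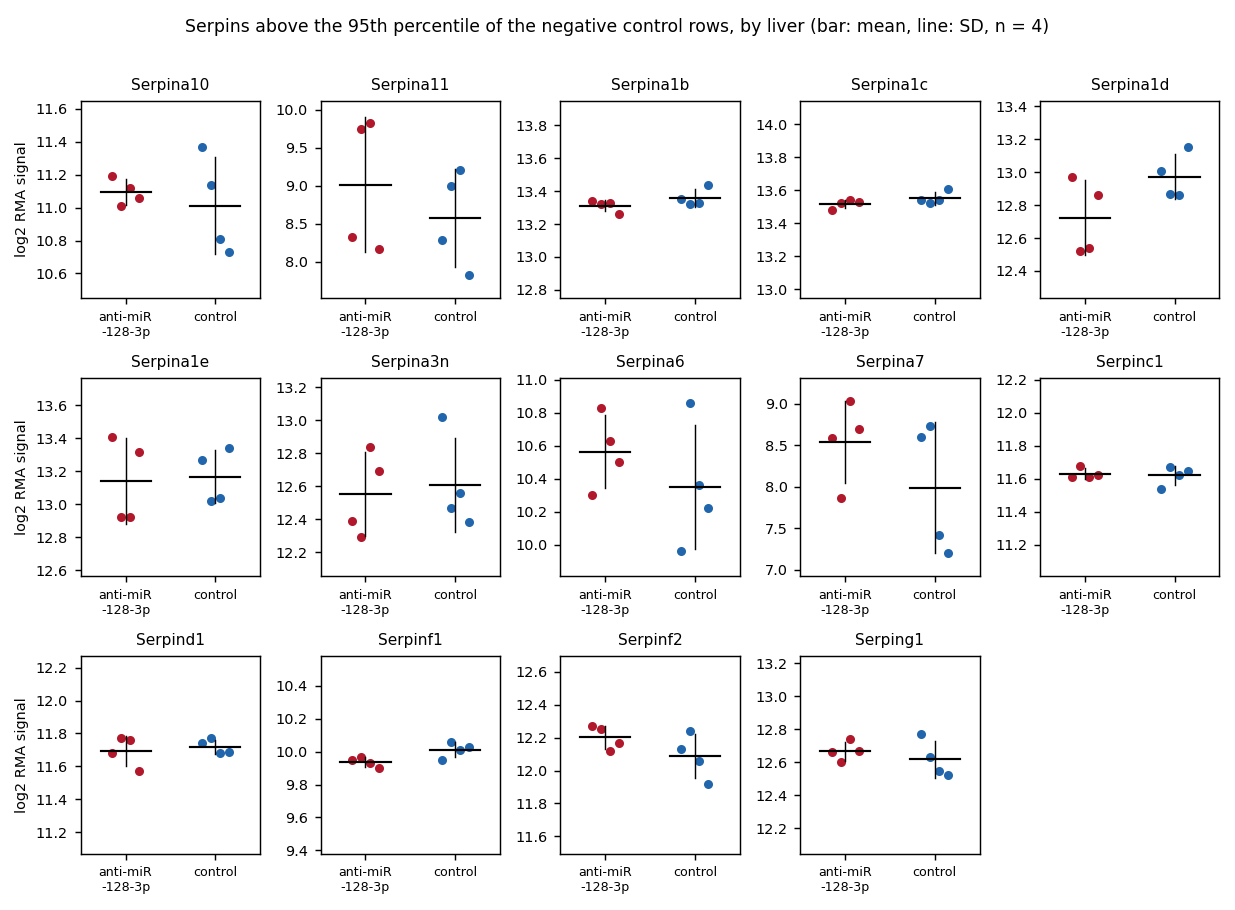
Log2 RMA signal (y axis) of the 14 serpins above the 95th percentile of the negative control rows, with 1 point per liver, anti-miR-128-3p left and control right, the bar the mean and the line the SD (n = 4 each). Serpinc1, Serpind1, Serpina1b, Serpina1c and Serpinf1 barely vary, Serpina7 and Serpina11 spread over more than 1.8 log2 units, and no gene separates the groups.

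The serpins of clades C, D and F that control clotting and fibrinolysis had overlapping groups. Serpinc1, antithrombin, was at 11.61, 11.68, 11.61 and 11.62 in anti-miR-128-3p livers, against 11.54, 11.67, 11.62 and 11.65 in control livers. Its difference of 0.01 had a 95% interval from -0.09 to 0.11, which in fold terms runs from 0.94 to 1.08. Serpind1, heparin cofactor II, was at 11.68, 11.77, 11.76 and 11.57 in anti-miR-128-3p livers, against 11.74, 11.77, 11.68 and 11.69 in control livers, a difference of -0.02 (-0.15 to 0.10). Serpinf2, alpha-2-antiplasmin, was at 12.27, 12.25, 12.12 and 12.17 in anti-miR-128-3p livers, against 12.13, 12.24, 12.06 and 11.92 in control livers. It was 0.12 ± 0.07 higher, with overlapping groups, and did not pass (limma adjusted p = 0.774).

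The coagulation and fibrinolysis list holds the proteases and cofactors that these serpins act on. Of its 28 genes 26 were measured, with 14 positive and 12 negative differences and a median of 0.01. At an unadjusted p under 0.05, 0 were higher and 1 was lower, against 4.26% (higher) and 3.37% (lower) of all genes. The lower one was the cofactor gene F8, with -0.43 ± 0.18. In liver F8 is made by sinusoidal endothelium. Of 10 markers of those cells, all were measured and none was below the median of the negative control rows. Of these, 9 were negative, 4 of them at an unadjusted p under 0.05, against 3.37% of all genes lower. All 10 markers had overlapping groups. Their summed log2 signal ran from 75.0 to 79.8 in anti-miR-128-3p livers and from 77.2 to 82.5 in control livers, and their part in the F8 value was not tested. F12, the contact factor that C1 inhibitor restrains, differed by 0.18 ± 0.08, the growth factor activator gene Hgfac by -0.11 ± 0.05 and the plasminogen activator gene Plat by 0.19 ± 0.10, none of them past that threshold.

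Serping1, C1 inhibitor, blocks the proteases of the classical and lectin complement pathways and of contact activation. It was at 12.66, 12.60, 12.74 and 12.67 in anti-miR-128-3p livers, against 12.77, 12.63, 12.55 and 12.52 in control livers. The highest liver of all was control replicate 1, and the difference was 0.05 ± 0.06. The complement protease list had 7 positive and 1 negative difference among its 8 genes (median 0.06), with 0 past an unadjusted p under 0.05 in either direction. Among these C2 differed by 0.17 ± 0.09, Masp2 by -0.12 ± 0.07, C4b by 0.20 ± 0.11 and C1ra by 0.06 ± 0.05.

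Interferon-induced genes were higher in the same anti-miR-128-3p livers. Of 19 measured in a list of 20, all had a positive difference (median 0.71). At an unadjusted p under 0.05, 16 were higher, against 4.26% of all genes, and 0 passed the adjusted threshold. Ifit3, the one with the smallest p, was 0.99 ± 0.14 higher. SERPING1 and SERPINB9 are known as interferon-inducible in human cells. The mouse gene Serping1 had the interval from -0.09 to 0.19 and Serpinb9 from -0.11 to 0.49.

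Serpinf1, pigment epithelium-derived factor, is a secreted serpin without protease inhibition that acts on vessels and on fat metabolism. It was at 9.95, 9.97, 9.93 and 9.90 in anti-miR-128-3p livers, against 9.95, 10.06, 10.01 and 10.03 in control livers. Control replicate 1 lay within the anti-miR-128-3p range and the other 3 control livers lay above it. The difference of -0.08 ± 0.04 did not pass (limma adjusted p = 0.753). Its receptor Pnpla2, the adipose triglyceride lipase, differed by -0.11 ± 0.10. Among other serpins and serpin partners outside the symbol rule, the angiotensinogen gene Agt differed by -0.27 ± 0.13. Lrp1, which clears serpin complexes, differed by -0.13 ± 0.10 and Vtn, the adhesive plasma protein vitronectin, by -0.06 ± 0.05. Of the 5 genes of that list 1 had a positive and 4 a negative difference, and 0 passed an unadjusted p under 0.05.

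Serpinh1 was the single serpin whose groups did not overlap. It encodes the collagen chaperone Hsp47, which stays in the endoplasmic reticulum and is made by matrix-producing cells. It was at 5.65, 5.69, 6.07 and 5.85 in anti-miR-128-3p livers, against 5.60, 5.64, 5.60 and 5.59 in control livers. The lowest anti-miR-128-3p liver and the highest control liver were 0.01 apart, and anti-miR-128-3p replicate 3 was the highest. The difference was 0.21 ± 0.09, a fold of 1.15 (limma adjusted p = 0.631). Without anti-miR-128-3p replicate 3 it was 0.12, and the unadjusted p was no longer under 0.05. That threshold was also missed without any one of the 4 control livers and without anti-miR-128-3p replicate 4. With quantile normalization (0.19) or arrays centred on their medians (0.20) the groups overlapped and the threshold was missed.

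Serpinh1 had a second, dimmer probe set, at 3.97, 3.67, 3.68 and 3.72 in anti-miR-128-3p livers, against 3.80, 3.87, 3.73 and 3.58 in control livers. It lay below the median of the negative control rows and its groups overlapped, with a difference of 0.02 ± 0.09. With the mean of both probe sets Serpinh1 differed by 0.11, with overlapping groups.

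Collagens, the clients of this chaperone, were higher in the same livers. Of 27 listed collagens and collagen-modifying proteins of the endoplasmic reticulum 25 were measured, with 19 positive and 6 negative differences and a median of 0.10. At an unadjusted p under 0.05, 11 were higher and 0 lower, against 4.26% (higher) and 3.37% (lower) of all genes. Of the list, 0 passed the adjusted threshold. Col1a1 was at 8.09, 7.65, 9.96 and 8.68 in anti-miR-128-3p livers, against 6.99, 7.0, 6.88 and 7.01 in control livers. As for Serpinh1, anti-miR-128-3p replicate 3 was the highest liver and replicate 4 the next. Col6a1 differed by 0.45 ± 0.11, Col3a1 by 1.22 ± 0.35 and Col6a2 by 0.38 ± 0.11. The 11 higher genes were collagens, Sparc and, of the collagen-modifying genes, Plod2 alone, with 0.42 ± 0.19. The other collagen-modifying genes of the list lay between -0.15 (Plod1) and 0.10 (P4ha1).

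Stellate cell and fibroblast markers are given beside this result. All 12 listed were measured and none was below the median of the negative control rows. Their summed log2 signal ran from 85.1 to 97.6 in anti-miR-128-3p livers and from 83.2 to 85.2 in control livers, with 8 markers positive and 4 negative. The list shares Col1a1, Col1a2 and Col3a1 with the collagen list. Of the other 9 markers, 5 were positive and 4 negative. Among them 1 was higher and 1 lower at an unadjusted p under 0.05, against 4.26% (higher) and 3.37% (lower) of all genes. These 9 markers summed to 63.1 to 69.5 in anti-miR-128-3p livers and 63.3 to 65.1 in control livers. Of these, Lum differed by 0.74, Acta2 by 0.65, Timp1 by 0.29, Des by 0.12 and Pdgfrb by 0.11. Lrat and Rgs5 differed by -0.06 each, Dcn by -0.10 and Reln by -0.29. Their part in the Serpinh1 result was not tested. In whole liver, more cells of a type and more RNA per cell cannot be told apart.

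**Figure D3:**
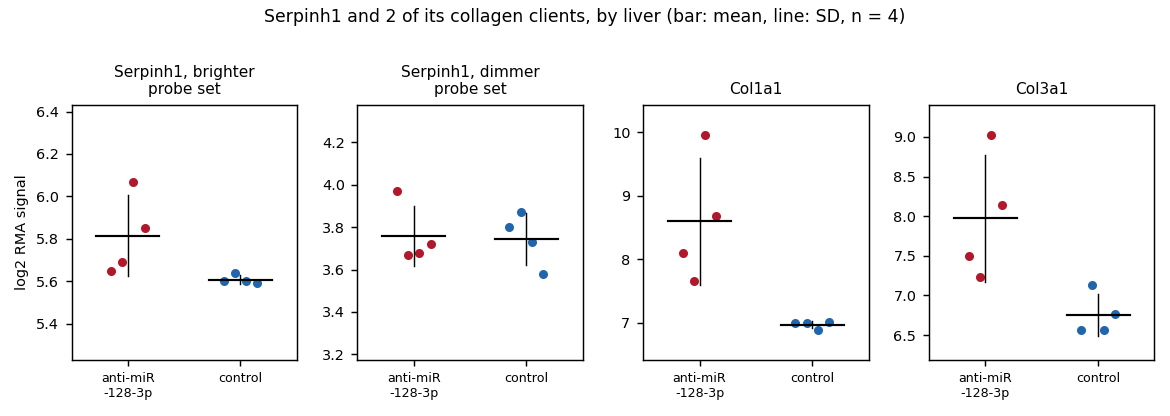
Log2 RMA signal (y axis) of both Serpinh1 probe sets and of Col1a1 and Col3a1, with 1 point per liver, anti-miR-128-3p left and control right, the bar the mean and the line the SD (n = 4 each). The brighter Serpinh1 probe set is higher in the 4 anti-miR-128-3p livers by a narrow margin, the dimmer one overlaps, and Col1a1 separates widely with replicate 3 at 9.96.

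The clade B serpins protect cells from proteases released inside them. The 5 above the median of the negative control rows were Serpinb1a, Serpinb6a, Serpinb6b, Serpinb8 and Serpinb9. Serpinb1a, which inhibits neutrophil elastase, cathepsin G and proteinase 3, was at 5.03, 5.94, 5.12 and 5.51 in anti-miR-128-3p livers, against 5.36, 5.73, 5.63 and 5.73 in control livers. The highest and the lowest liver both belonged to the anti-miR-128-3p group, and the difference was -0.21 ± 0.19. Without anti-miR-128-3p replicate 2 it was -0.40.

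Serpinb9, the inhibitor of granzyme B, was at 6.26, 6.29, 6.40 and 5.84 in anti-miR-128-3p livers, against 5.95, 6.20, 5.75 and 6.11 in control livers. Replicate 4 was the lowest of the anti-miR-128-3p livers, the other 3 lay above every control liver, and the difference was 0.19 ± 0.13. Serpinb6a, an inhibitor of cathepsin G, was at 6.16, 5.92, 6.20 and 6.19 in anti-miR-128-3p livers, against 6.03, 6.31, 5.84 and 6.17 in control livers. Its groups overlapped, and the difference was 0.03 ± 0.10. Serpinb6b was at 5.37 ± 0.31 in anti-miR-128-3p livers and 5.17 ± 0.30 in control livers, and Serpinb8, an inhibitor of furin, was at 5.34 ± 0.16 in anti-miR-128-3p livers and 5.46 ± 0.22 in control livers (SD, n = 4 each).

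The proteases and caspases that these serpins act on were read from a pair of lists. In the granzyme, perforin and caspase list, 3 of 8 genes had a positive and 5 a negative difference (median -0.02) and 0 passed an unadjusted p under 0.05. Of the 8, Gzma, Gzmk and Gzmm lay below the median of the negative control rows. Casp8 differed by -0.28 ± 0.18 and Casp1 by 0.24 ± 0.26. In the list of neutrophil proteases and cathepsins, 5 of 8 were positive and 3 negative (median 0.02). Of these 8, 1 was higher and 0 lower at an unadjusted p under 0.05, against 4.26% (higher) and 3.37% (lower) of all genes. The higher one was the macrophage and dendritic cell cathepsin Ctss, with 0.72 ± 0.30. Ctsl differed by 0.15 ± 0.09, Ctsk by 0.22 ± 0.15 and the elastase gene Elane by -0.27 ± 0.24.

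For markers of the cells that express clade B serpins, the summed signals of both groups overlapped in each list. Macrophage and Kupffer cell markers, all 12 measured and none below the median of the negative control rows, had 11 positive differences and 1 negative. Of these 12, 2 were higher and 0 lower at an unadjusted p under 0.05, against 4.26% (higher) and 3.37% (lower) of all genes. Each of the 12 had overlapping groups. Their summed log2 signals ran from 93.6 to 106.7 in anti-miR-128-3p livers and from 86.1 to 98.3 in control livers. Neutrophil markers, all 12 measured, summed to 54.1 to 58.1 in anti-miR-128-3p livers and 53.8 to 73.5 in control livers, and Retnlg and Mmp8 lay below that median. The highest sum was that of control replicate 1 alone, and the other 3 control livers lay between 53.8 and 56.6. Lymphocyte and NK cell markers, 11 of 12 measured, summed to 51.5 to 53.4 in anti-miR-128-3p livers and 50.4 to 54.9 in control livers, and Ms4a1, Ncr1 and Klrb1c lay below it. Their part in the clade B values was not tested.

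The other 22 clade B genes were below the median of the negative control rows. They include Serpinb2, a serpin of monocytes, Serpinb5, known as maspin, the squamous cell serpins Serpinb3a, Serpinb3c and Serpinb3d, and the expanded mouse Serpinb9 relatives Serpinb9b to Serpinb9h. Serpine3, the brain serpin Serpini1 and the pancreas serpin Serpini2 also lay below it, with differences of -0.02, -0.02 and 0.02.

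The largest spread in the family lay between livers of the same group. Serpina11, a clade A gene of the chromosome 12 cluster, was at 8.32, 9.75, 9.82 and 8.17 in anti-miR-128-3p livers, against 8.28, 9.0, 9.21 and 7.82 in control livers. In both groups replicates 2 and 3 were at 9.0 or more and replicates 1 and 4 at 8.32 or less. Its within-group SD of 0.78 was at the 99.7th percentile of all genes, and its difference of 0.44 ± 0.45 was smaller than that SD. It was 0.17 without anti-miR-128-3p replicate 3 and 0.72 without anti-miR-128-3p replicate 4.

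Other clade A genes followed the same livers. Serpina1e was at 13.27 or more in replicates 1 and 4 of both groups and at 13.04 or less in replicates 2 and 3, the reverse of Serpina11. Serpina12 was at 6.22 or more in the first set of livers and 6.14 or less in the second. Serpina1d and Serpina6 leaned in the same directions as Serpina1e and Serpina11, with an overlap between the sets. By contrast, Serpinc1 differed by at most 0.14 between any 2 of the 8 livers. The labels give no meaning to the replicate numbers.

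**Figure D4:**
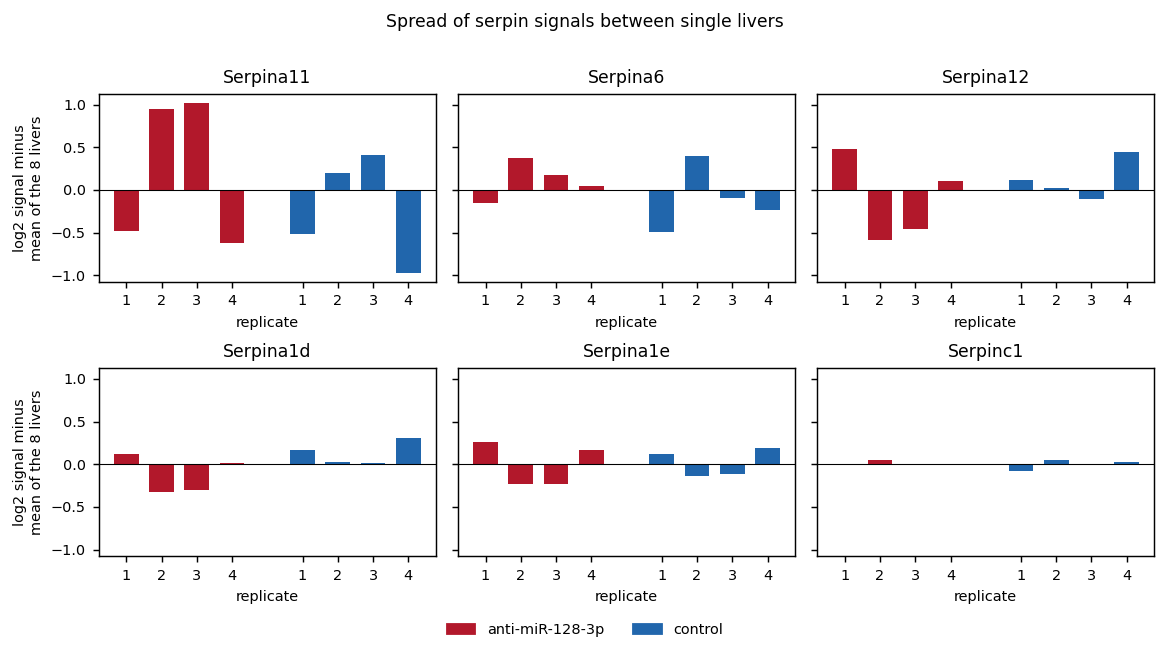
Log2 signal minus the mean of the 8 livers (y axis) for 6 serpins, with 1 bar per liver, anti-miR-128-3p replicates left and control replicates right. Serpina11 is high in replicates 2 and 3 of both groups, Serpina12 and Serpina1e are low in the same livers, and Serpinc1 hardly moves.

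Promoter windows from RefSeq (250 bases before to 50 after each annotated start, GRCm38.p6) were at hand for 49 of the 55 serpins and were searched for a pair of motifs on both strands. The gamma-activated site, TTCNNNGAA, to which STAT factors bind, was found in 7 of 49 serpins and in 2582 (9.55%) of 27025 genes with a window. The 7 were Serpina11, Serpina1f, Serpina3f, Serpina3i, Serpinb2, Serpinb6a and Serpinb9c. An interferon-stimulated response element, searched as GAAA, any 2 bases and GAAA, was found in Serpina3a, Serpinb6a and Serpinb9, or 6.12% of serpins against 3.99% of genes. In Serpinb6a this match overlaps a gamma-activated site. The matches in Serpina11, which varied most between livers, and in Serpinb9, the inhibitor of granzyme B, are printed with 9 bases on either side and the match in capitals, at chr12:103989991-103990017 (minus strand) and chr13:33004486-33004513 (plus strand). The match in Serpinb9 is on the strand opposite to the gene. It lies inside the RefSeq span of the gene, chr13:32997061-33017955, before an annotated start within that span. The match in Serpinb2 also lies inside the span of its gene. A match is a description of the sequence only.
Serpina11: tcccgtcagTTCCAGGAActgacctga
Serpinb9: tcctgctacTTTCACTTTCtctaaggac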

How the data were processed

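The authors deposited log2 signals from RMA, per the submitters' processing notes; its software, version and filters were not given in the sources used here. Of 72688 rows, 6732 array control rows were left out. Names came from the platform annotation, updated through Entrez IDs against RefSeq (GRCm38.p6, names only). The 31080 probe sets of exactly 1 gene gave 30627 genes, the brightest probe set per gene being used. The test was limma 3.58.1's moderated test under R 4.3.3 (two-sided, 8 arrays, no covariate) with Benjamini-Hochberg adjustment over all genes, after a check on simulated data. Python 3.11.15 and pandas 2.3.3 were used for tables and matplotlib 3.10.9 for plots.

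The serpins, gene lists, tests and alternatives were chosen with earlier results of these data known. Genes named with values are serpins whose groups do not overlap or with unadjusted p under 0.05, a fixed set of plasma, matrix and clade B serpins, and up to 4 genes per list by smallest p. Serpina11 was described by liver, and other genes beyond the rule were named, after their values were seen. Alternatives were other variance moderation, array weights, filters on dim genes, the mean of probe sets, quantile normalization, median centring, a replicate block and leaving out each array. The planned protein comparison was not run because no protein table was used here. The number of arrays limits the precision.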

Additional observations from a re-analysis of the deposited data

Results flagged for a closer look

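In 12 of the 176 groups of 4 livers examined (serpins, Serpina4-ps1 and named pathway genes), the highest or lowest liver stood apart from the other 3. Chance gives about 1 in 20 such groups. Of these, 6 were among the 110 groups of serpins. Serpina3i was at 5.94 in anti-miR-128-3p replicate 3 against 5.37 in the next liver, Serpinb9b at 4.18 in anti-miR-128-3p replicate 3 against 4.01, and Serpinb6a at 5.92 in anti-miR-128-3p replicate 2 against 6.16. In control replicate 1, Serpina3b was at 3.35 against 3.25 and Serpini1 at 3.12 against 3.02, both below the median of the negative control rows. Serpinh1 was at 5.64 in control replicate 2 against 5.60 in the next control liver.

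Among the pathway genes, Casp8 was at 8.54 in anti-miR-128-3p replicate 3, Pnpla2 at 9.02 in anti-miR-128-3p replicate 4, C2 at 9.05 in control replicate 4, Elane at 5.52 and Col6a2 at 6.36 in control replicate 1, and Col1a1 at 6.88, the lowest, in control replicate 3.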

How the results depend on the processing

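Limma called 0 serpins at an adjusted p under 0.05 under all 16 alternatives, and over all genes 0 except without control replicate 4, where it called 1, Irgm1. The number of genes past an unadjusted p under 0.05 was 2337 of 30627. It was 1512 when only genes at or above the median level were tested, a smaller set, so these counts do not compare shares. The serpin counts were small and moved. At an unadjusted p under 0.05 the number higher was 1, and 0 with the mean of probe sets or median centring, 2 with the replicate block and 0 to 2 when single arrays were left out. With quantile normalization the 1 gene was Serpinf2 in place of Serpinh1. Among single arrays, it was 0 without anti-miR-128-3p replicate 3 or control replicate 1, 3 or 4, Serpina6 and Serpinf2 without control replicate 2, and Serpinb9 without anti-miR-128-3p replicate 4. The number lower was 0, and 1 with quantile normalization (Serpina1b) or median centring (Serpina1d), 2 with the replicate block and 0 to 2 without single arrays, the 2 being Serpina12 and Serpina1d without anti-miR-128-3p replicate 1. Non-overlapping groups with a higher signal numbered 1, and 0 with the mean of probe sets, quantile normalization or median centring, and 1 to 2 without single arrays. Those with a lower signal numbered 0, and 4 with quantile normalization (Serpina1b, Serpina1c, Serpinb5 and Serpinf1) and 0 to 4 without single arrays, the 4 being Serpina1c, Serpinb1b, Serpinb3a and Serpinb5 without control replicate 2. The labels share replicate numbers between groups. Over all genes the deviations of same-numbered arrays correlated at -0.031, -0.02, -0.079 and -0.123, so no pairing was seen across genes as a whole. Such a correlation cannot show whether the numbers mark something shared by a smaller set of genes. The labels do not say. With the replicate block the serpins past the unadjusted threshold were Serpina11 and Serpina6 (higher) and Serpina1d and Serpinb8 (lower), with limma adjusted p of 0.532 to 0.67.

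The median difference of all serpins was -0.01, and 0.03 with the filter at the median level, which keeps 23 of them. For clade A it was -0.02 and ran from -0.06 to 0.03 without single arrays. For clade B it was 0.01, 0.03 with the median filter and -0.02 to 0.01 without single arrays. For the Serpina1 paralogs it was -0.04, and -0.08 with quantile normalization. For the Serpina3 paralogs it was -0.05, 0.04 with the median filter and -0.08 to 0.03 without single arrays, being positive without control replicate 1 (0.03) or anti-miR-128-3p replicate 2 (0.02). The cause of these moves beyond the smaller number of genes was not tested. None of the 13 serpins with a difference of at least 0.1 in size changed sign under any alternative that kept it. Serpina3i, however, fell from 0.15 to 0.00 without anti-miR-128-3p replicate 3. Signals near the negative control rows limit what clade B can show.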

Other observations

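The rule for the family leaves out pseudogenes, and 5 serpin pseudogenes had probe sets of their own. One of them, Serpina4-ps1, a transcribed pseudogene of the chromosome 12 cluster that lies between Serpina12 and Serpina5 in RefSeq, had the most negative difference of all 30627 genes tested. It was chosen here after its values were seen. It was at 8.59, 8.23, 10.35 and 8.61 in anti-miR-128-3p livers, against 10.37, 10.50, 12.61 and 11.94 in control livers. Replicate 3 was the highest liver of each group, and the groups did not overlap, by a margin of 10.35 in the highest anti-miR-128-3p liver against 10.37 in the lowest control liver. The difference was -2.41 ± 0.60, a fold of 0.19 with a 95% interval of 0.07 to 0.48, and it did not pass (limma adjusted p = 0.324).

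Serpina4-ps1 differed by -2.88 without anti-miR-128-3p replicate 3 and by -1.99 without control replicate 3, the ends of the range over single arrays left out. Its adjusted p ran from 0.228 to 0.71 over all alternatives. With median centring the groups overlapped and the difference was -2.42. Its within-group SD of 1.03 was at the 99.9th percentile of all genes. Its neighbours differed far less, Serpina12 by -0.23 ± 0.23 and Serpina5 by -0.02 ± 0.07, and the other 4 pseudogenes, Serpina3d-ps, Serpina3e-ps, Serpina3l-ps and Serpinb1-ps1, lay between -0.04 and 0.09.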
